A study of Mus musculus with 59 samples.

Results

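The earliest time point of a thyroid hormone (TH) time course in mouse brown adipose tissue (BAT) was analysed, as the comparison of 4 wild-type (WT) mice collected 3 h after TH with 4 WT controls. These 8 mice were chosen by their labels (PTU+TH_3H and PTU), out of 30 mice in the TH experiment and 59 in the whole series. All were C57BL/6J males aged 8 to 12 weeks. Both groups had received propylthiouracil (PTU) in the food, which blocks hormone synthesis in the thyroid and makes mice hypothyroid, and the treated mice were then given a single intraperitoneal injection that combined T3, the active hormone, with its precursor T4. Every mouse was a separate library of total RNA from whole tissue, without sorting of cells. The labels do not give the hour of the day at collection, the feeding state, or whether controls were injected with vehicle. Other mice of the series were used only to follow the genes that changed at 3 h. They were WT mice taken 6, 12 or 24 h after TH (4 each), BATKO mice on PTU without TH (5) or 24 h after TH (5), and CTRL mice kept at 4 °C (3) or 30 °C (4). The sources used here do not describe the genetic change of the BATKO mice.

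TH acts through the nuclear receptors TRα and TRβ, which bind DNA as heterodimers with RXR, usually on 2 half-sites AGGTCA in direct repeat with a gap of 4 bases (DR4). Without hormone the receptor recruits corepressors such as NCoR, and with T3 it releases them and recruits coactivators, so that target genes can respond without new protein synthesis. In brown fat, TH is known for acting together with noradrenaline on uncoupling protein 1 (Ucp1), which turns the energy of respiration into heat, and the deiodinase Dio2 makes T3 from T4 inside the brown adipocyte.

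The libraries held 12020000 to 14620000 counts. Transcripts encoded in the mitochondrial genome made up, in percent of counts, 47.3 to 55.7 in the PTU mice and 45.1 to 49.9 at 3 h (exact permutation test, two-sided, p = 0.2857). The smallest p that 4 mice against 4 can give in this test is 0.02857. On the first principal component, with 39.6% of the variance, all PTU mice lay on one side (-31.79 to -14) and all 3 h mice on the other (13.66 to 32.27). The 3 h mouse B11 stood apart on the second component, with 16.3% of the variance, at 30.57 where the other 7 mice were between -22.17 and 9.747. The brown adipocyte markers were all detected. Their summed level, which Ucp1 dominates, was 94620 to 122500 in the PTU mice and 121300 to 193900 at 3 h (exact permutation p = 0.05714).

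**Figure D1:**
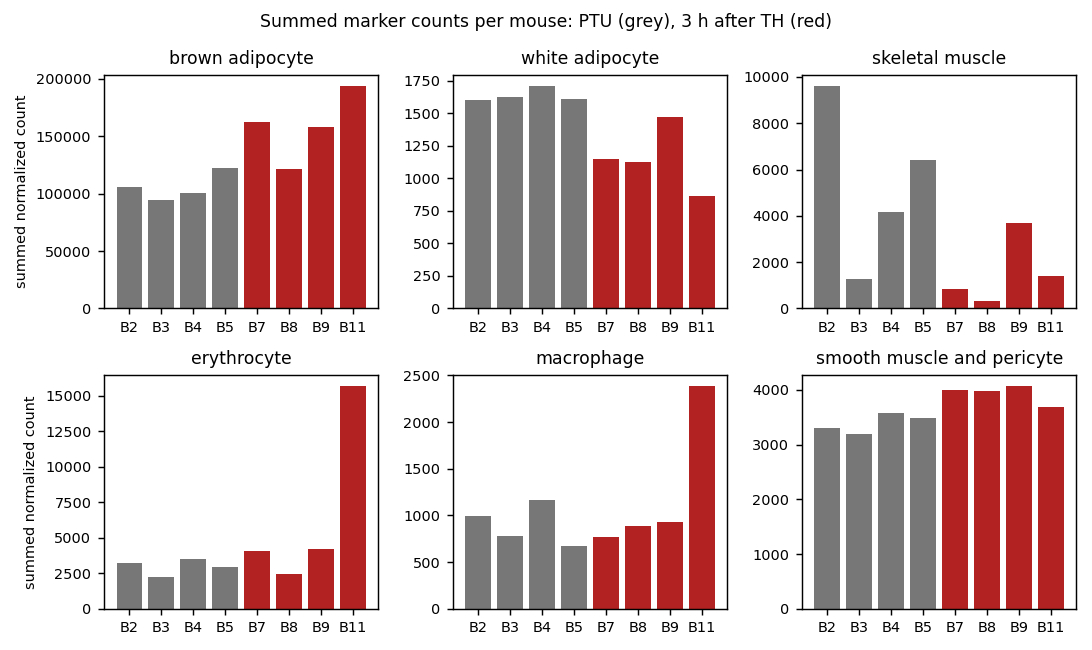
Summed normalized counts of 6 marker lists in each mouse, with a linear axis from 0; grey bars are PTU mice (B2 to B5) and red bars are mice 3 h after TH (B7 to B11). Skeletal muscle markers were spread widely in both groups, and erythrocyte and macrophage markers were highest in B11.

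Markers of other tissues varied between mice. The 12 skeletal muscle markers summed to 9621, 1264, 4145 and 6394 in the PTU mice and to 828, 304, 3710 and 1393 at 3 h, with a median log2 fold change of -1.91. None of the 12 passed the test by edgeR with the low-count filter, Ckm (-2.04, adjusted p = 0.196) and Acta1 (-2.01, adjusted p = 0.192) included. Without that filter 8 of the 12 were downregulated, among them these 2 genes. The 7 erythrocyte markers summed to 2260 to 3480 in the PTU mice and 2437 to 15690 at 3 h, and the 11 macrophage markers to 673 to 1169 in the PTU mice and 764 to 2387 at 3 h, with the highest sums of both lists in B11. The macrophage genes Lyz2 (0.35, adjusted p = 0.607) and C1qb (0.74, adjusted p = 0.206) did not pass. The summed white adipocyte markers were lower in every 3 h mouse, at 1603 to 1712 in the PTU mice and 865 to 1472 at 3 h (exact permutation p = 0.02857), and those of smooth muscle and pericytes were higher in every one, at 3186 to 3569 in the PTU mice and 3686 to 4072 at 3 h (p = 0.02857, exact). Single members of these lists did not pass, among them Retn (-0.51, adjusted p = 0.124), Hoxc8 (-0.63, adjusted p = 0.081), Acta2 (0.57, adjusted p = 0.093) and Rgs5 (0.092, adjusted p = 0.559). The white adipocyte list did not move as one. Its 5 tested members had log2 fold changes from -0.63 to 0.84, with a median of -0.22. Of the white adipocyte list, Hoxc10 and Tcf21 were at 0 in all 8 mice. The sums of the T cell, B cell (Ighm 0.19, adjusted p = 0.806, Igkc -1.07, adjusted p = 0.176), endothelial (Pecam1 0.27, adjusted p = 0.119, Cdh5 -0.024, adjusted p = 0.918), fibroblast and Schwann cell lists differed with exact permutation p between 0.05714 and 0.6. The part of these differences in the results that follow was not tested, beyond leaving out single mice. In whole tissue, fewer cells of a type and less RNA per cell cannot be told apart.

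At 3 h, 663 of the 13003 genes tested (5.1%) were upregulated and 532 (4.09%) were downregulated (edgeR quasi-likelihood test, Benjamini-Hochberg adjusted p under 0.05). At least 2-fold changes made up 185 of the rises and 124 of the falls. The median size of the log2 fold change (log2FC) was 0.73 for upregulated and 0.67 for downregulated genes. Protein-coding genes accounted for 612 and 498 of the calls. The 4 treated mice were all above the 4 controls for 583 upregulated genes and all below for 455 downregulated genes. Over all genes tested, no overlap was found for 8.43% with higher and 7.54% with lower values at 3 h. The median log2 fold change over all genes was 0.0098. Without the control mouse B3, 399 genes were upregulated, of which 392 were among the 663, and 285 were downregulated, of which 274 were among the 532. Without B2 the upregulated genes numbered 434, and without B5 the downregulated ones 349. No other mouse moved either count by more than 1.5 times, B11 included. Of 173 called genes named in the text, 107 were called without each of the 8 mice in turn. For the other 66, the highest adjusted p and the mouse left out there follow the adjusted p.

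**Figure D2:**
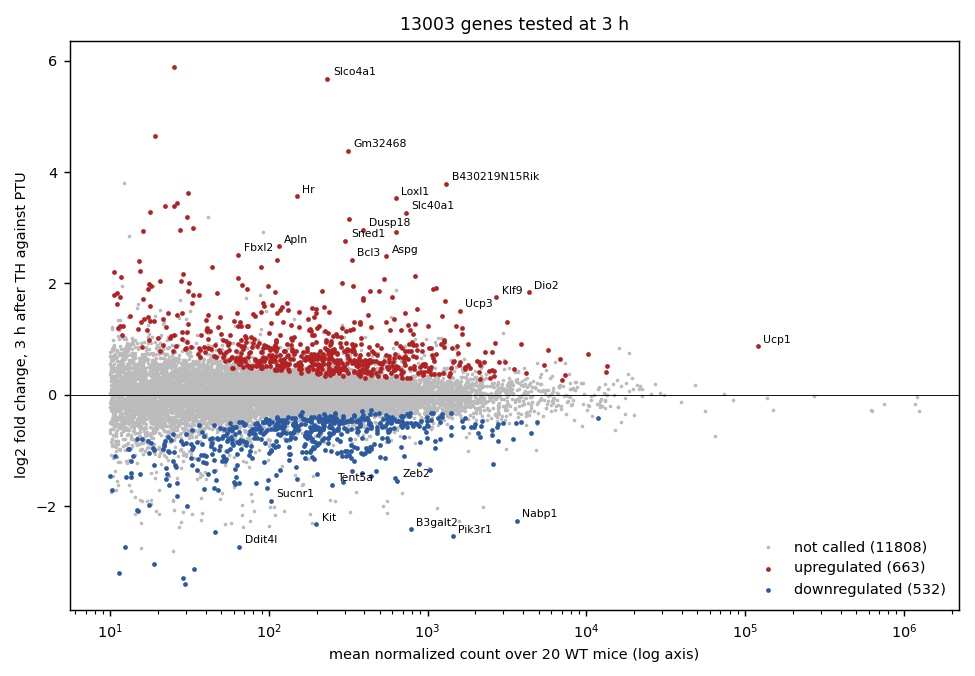
Log2 fold change at 3 h against PTU (vertical axis) plotted by the mean normalized count over the 20 WT mice (horizontal log axis) for the 13003 genes tested; red and blue points are the 663 upregulated and 532 downregulated genes and grey points the others. Slco4a1 at 5.67 and Hr at 3.57 were among the largest rises, and Ddit4l at -2.73 and Pik3r1 at -2.54 among the largest falls.

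Genes were ranked by fold change among those called with a mean above 50 normalized counts over the 20 WT mice and no overlap between the groups. The largest rise was that of Slco4a1, an organic anion transporter that carries thyroid hormones. It had 2.85, 1.15, 3.15 and 3.34 normalized counts in the 4 PTU mice and 192, 101, 65.8 and 209 in the 3 h mice (log2FC 5.67 ± 0.40 (SE), adjusted p = 4.89e-09). The groups were far apart, although the 3 h mice differed widely among themselves. Normalized counts are scaled for library size (TMM) and not for transcript length, so levels are compared between mice and not between genes.

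Hr, which encodes the corepressor Hairless, a textbook TH target, had 8.54, 12.6, 12.6 and 17.8 normalized counts in the controls and 124, 221, 169 and 96.4 at 3 h (log2FC 3.57 ± 0.31 (SE), adjusted p = 1.33e-07). Klf9, a zinc-finger transcription factor and another classical target, had 872, 1024, 1070 and 922 normalized counts in the controls and 3619, 3140, 2962 and 3337 at 3 h (log2FC 1.75 ± 0.10 (SE), adjusted p = 9.2e-10). The Klf9 values were close together within each group, with a wide gap between the groups. Bcl3, a nuclear regulator of NF-kappa-B, had 67.3, 76.8, 73.2 and 57.8 in the controls and 336, 451, 298 and 399.7 after TH (log2FC 2.43 ± 0.22 (SE), adjusted p = 1.74e-07). In all 3 genes, every treated mouse was above every control.

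Loxl1, an enzyme that crosslinks elastin, had 57.9, 61.9, 41.7 and 32.3 normalized counts in the controls and 422, 603, 488 and 716 at 3 h (log2FC 3.53 ± 0.23 (SE), adjusted p = 9.29e-10). Slc40a1, the iron exporter ferroportin, had 85.4, 95.1, 75.6 and 97.9 in the controls and 1323, 742, 747 and 599.5 after TH (log2FC 3.27 ± 0.22 (SE), adjusted p = 2.66e-09). The groups did not overlap in either gene. Sned1, an extracellular matrix protein, rose as well, with 39.8 to 69.3 normalized counts in the PTU mice and 265 to 451 at 3 h (log2FC 2.77 ± 0.17 (SE), adjusted p = 9.29e-10). The peptide hormone apelin, Apln, had 7.59, 5.73, 3.94 and 4.45 in the controls and 61.3, 23.9, 25.5 and 29.2 at 3 h (log2FC 2.67 ± 0.47 (SE), adjusted p = 0.000979), with 1 mouse, B7, well above the other three. Sned1 overlaps Mterf4 on the opposite strand and Fbxl2 overlaps Ubp1, and the strand setting of the counting is not given in the sources used here. Of 237 genes named in the text, 65 share exon bases with a gene annotated on the opposite strand, so part of their reads may belong to that gene.

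Of the remaining large rises, the phosphatase gene Dusp18 rose (69.9 to 77.9 normalized counts in the PTU mice and 442 to 847 at 3 h, log2FC 2.96 ± 0.19 (SE), adjusted p = 9.29e-10), as did Trim67 of the TRIM family (log2FC 2.92 ± 0.23 (SE), adjusted p = 4.25e-08), the ubiquitin ligase component Fbxl2 (log2FC 2.52 ± 0.27 (SE), adjusted p = 2.39e-06) and the asparaginase gene Aspg (log2FC 2.49 ± 0.21 (SE), adjusted p = 1.08e-07). In addition, 2 genes annotated as non-coding belonged to the 12 largest rises. B430219N15Rik (ENSMUSG00000085211.2, chromosome 10, antisense) had 57.9, 80.2, 62.99 and 68.96 normalized counts in the controls and 863, 1146, 985 and 732 at 3 h (log2FC 3.79 ± 0.23 (SE), adjusted p = 9.29e-10). It shares 157 bases with Ginm1 on the opposite strand, whose own log2 fold change was -0.17. The lincRNA Gm32468 (chromosome 10) had 0, 1.15, 1.57 and 1.11 in the controls, at most 2 counts in a library, and 5.74, 21.2, 14.7 and 46.6 at 3 h (adjusted p = 0.0017). With so few control counts its fold is not given as a size.

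The falls were smaller. Pik3r1, which encodes p85α, the regulatory subunit of PI3-kinase, had 3340, 2868, 3911 and 1664 normalized counts in the PTU mice and 572, 542, 446 and 461 at 3 h (log2FC -2.54 ± 0.37 (SE), adjusted p = 0.000147). The 3 h values were close together and the lowest control was about 3 times the highest of them. B3galt2, a galactosyltransferase gene, had 2656, 3867, 2443 and 2636 in the controls and 537, 637, 724 and 271 after TH (log2FC -2.42 ± 0.31 (SE), adjusted p = 2.73e-05), and shares 679 bases with Cdc73 on the opposite strand. The receptor tyrosine kinase gene Kit had 169, 313, 332 and 502 in the controls and 86.2, 57.96, 69.7 and 48.2 at 3 h (log2FC -2.33 ± 0.40 (SE), adjusted p = 0.000763). Nabp1, which encodes a single-stranded DNA binding protein, fell as well, with 6691 to 13310 normalized counts in the PTU mice and 1724 to 2726 at 3 h (log2FC -2.27 ± 0.27 (SE), adjusted p = 1.27e-05).

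Ddit4l, a relative of the mTOR inhibitor Ddit4, had the largest fall of the ranking. The controls were spread widely, with 202, 37.8, 73.2 and 117 normalized counts, and the 3 h mice had 14.4, 9.20, 23.6 and 17.4 (log2FC -2.73 ± 0.54 (SE), adjusted p = 0.00262). The transcriptional repressor genes Zeb2 and Trps1 fell with tight groups. Zeb2 had 1233, 1555, 1054 and 1400 in the controls and 398, 386, 457 and 546 after TH (log2FC -1.55 ± 0.15 (SE), adjusted p = 5.71e-07), and Trps1 had 152, 176, 146 and 198 in the controls and 57.4, 56.1, 60.9 and 56.9 after TH (log2FC -1.53 ± 0.17 (SE), adjusted p = 4.69e-06). The succinate receptor gene Sucnr1 (log2FC -1.91 ± 0.34 (SE), adjusted p = 0.000937), Lonrf1 (log2FC -1.67 ± 0.23 (SE), adjusted p = 8.49e-05), Tent5a, a poly(A) polymerase gene (log2FC -1.62 ± 0.32 (SE), adjusted p = 0.00254), Pdzrn3 (log2FC -1.60 ± 0.30 (SE), adjusted p = 0.00179) and the processed pseudogene Gm8990 (log2FC -1.58 ± 0.38 (SE), adjusted p = 0.0117, 0.059 without B4) complete the 12 largest falls. Reads of Gm8990 may be shared with the gene it was copied from.

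**Figure D3:**
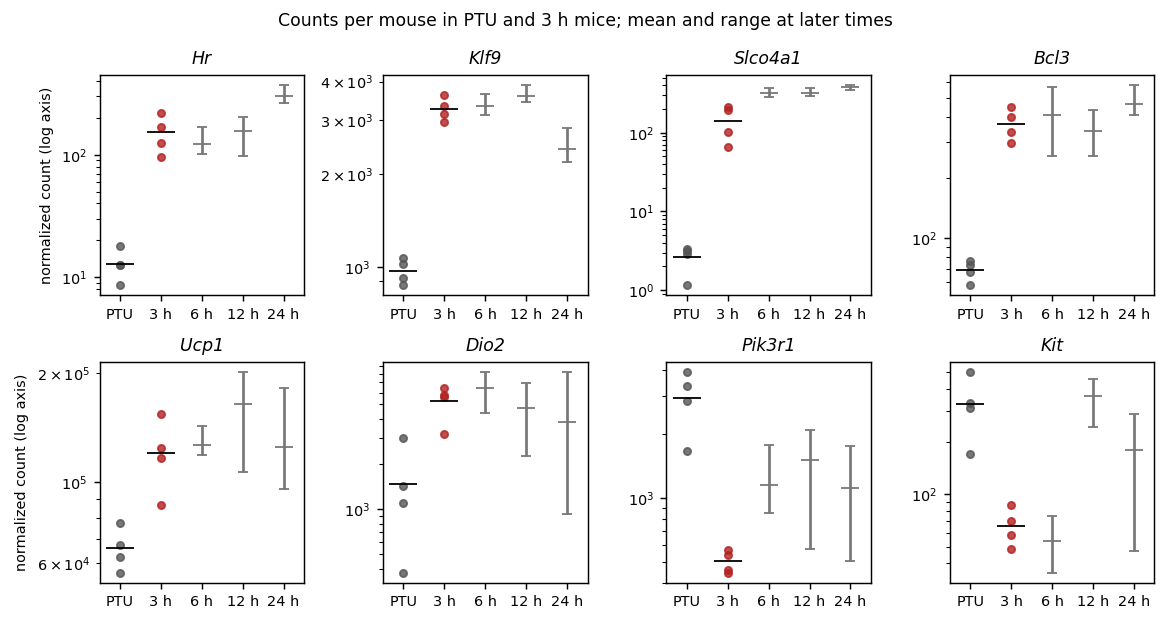
Normalized counts (log axes) of 8 genes; points are single mice in the PTU group (grey) and 3 h after TH (red) with black dashes for their means, and grey dashes with bars are the mean and range of 4 mice at 6, 12 and 24 h. Hr, Klf9, Slco4a1, Bcl3 and Ucp1 were higher and Pik3r1 and Kit lower in each of the 4 mice at 3 h, and Kit had 365 ± 104 normalized counts at 12 h (SD, n = 4), where the controls had 329 ± 136.

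Of 20 genes listed as known TH targets, Ucp1 of brown fat among them, 16 were tested. Of these, 9 were upregulated and 0 were downregulated, beside 5.1% and 4.09% over all genes tested. Their median log2 fold change was 0.80. The lists used here were written with earlier results of these data known, so a list's direction is not independent evidence. The 5.1% and 4.09% over all genes tested are the shares to set beside the counts of every list below. Beside Hr, Klf9 and Bcl3, the upregulated genes included the mitochondrial carrier gene Ucp3 (log2FC 1.51 ± 0.14 (SE), adjusted p = 4.71e-07), Stat5a (log2FC 1.16 ± 0.15 (SE), adjusted p = 2.72e-05), the mitochondrial glycerol-3-phosphate dehydrogenase gene Gpd2 (log2FC 0.52 ± 0.11 (SE), adjusted p = 0.00468), Ucp1 and Ppargc1a. Ucp3 had 780.5, 828, 612 and 676 in the controls and 2073, 2451, 2164 and 1555 after TH, and the groups did not overlap. Members without a call included the sarcoplasmic calcium pump gene Atp2a2, with 2135 to 2549 normalized counts in the PTU mice and 2770 to 3242 at 3 h (log2FC 0.29 ± 0.099 (SE), adjusted p = 0.0652), and the glucose transporter gene Slc2a4 (log2FC 0.34 ± 0.13 (SE), adjusted p = 0.101). Me1 (-0.30, adjusted p = 0.388) and Pck1 (-0.39, adjusted p = 0.625), lipogenic and glyceroneogenic enzymes known to respond to TH, had log2 fold changes below 0 that did not pass. Hcn2, a pacemaker channel gene of the heart, was low and did not pass (1.57, adjusted p = 0.198), nor did Thrsp, a lipogenic factor (-0.13, adjusted p = 0.746), and Cpt1a, of fatty acid oxidation (0.030, adjusted p = 0.959). Without B11, 8 of the 16 were upregulated.

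The control region of called genes was searched for DR4 in the RefSeq promoters (GRCm38.p6, 250 bases before to 50 after the start of each gene). Promoters of 9248 tested genes were matched by symbol, 520 of them upregulated and 389 downregulated. The exact element, AGGTCA repeated after 4 bases, was found on either strand in 4 of 27025 promoters overall and in 0 of the 9248. With any base at the fourth place of both half-sites (AGGNCA), it was present in 79 of 27025 promoters (0.292%), in 26 of the 9248 (0.281%), in 4 of the 520 upregulated genes (0.769%) and in 0 of the 389 downregulated genes. The 4 are shown because they are the upregulated genes with such an element next to the start. Capitals mark the half-sites, which read on the reverse strand as TGNCCT, and each sequence is given 5′ to 3′ on the strand of the gene.
Esrra (chr19:6921759-6921785, minus strand of the genome): gccgcgaTGTCCTtttgTGTCCTacaa
Pank1 (chr19:34879602-34879631, minus strand of the genome): ctagtttTGTCCTtcacTGTCCTttctctc
Psmb10 (chr8:105938422-105938451, minus strand of the genome): aatctgaTGCCCTcttcTGACCTtggtggg
Slc35g1 (chr19:38395962-38395991, plus strand of the genome): gggcgggAGGGCAgcggAGGACAagcgcgc
A match is a run of letters and not a binding site, and the windows are short. Esrra encodes the nuclear receptor ERRα, with a log2FC at 3 h of 0.49, adjusted p = 0.0452, 0.127 without B5. Pank1, of coenzyme A synthesis, had 0.92, adjusted p = 1.59e-06, the immunoproteasome subunit gene Psmb10 0.77, adjusted p = 0.0107, and Slc35g1 0.64, adjusted p = 0.0284, 0.105 without B11. The last 3 were named for their promoters after their values were seen.

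For the hormone's own machinery, 22 genes of receptors, RXRs and coregulators were tested, with a median of -0.039. Of these, 6 were upregulated and 2 downregulated, beside 5.1% and 4.09% over all genes tested. Neither receptor gene passed, with 288 to 402 normalized counts in the PTU mice and 254 to 343 at 3 h for Thra (-0.23, adjusted p = 0.248) and 417 to 479 normalized counts in the PTU mice and 354 to 376 at 3 h for Thrb (-0.30, adjusted p = 0.1). Thra shares 263 bases with Nr1d1 on the opposite strand, whose log2 fold change was 1.01. The partners moved unequally. Rxrb had 63.5, 49.3, 66.1 and 42.3 in the controls and 107, 87.4, 93.3 and 118 at 3 h (log2FC 0.86 ± 0.17 (SE), adjusted p = 0.00221), Rxrg changed less (log2FC 0.39 ± 0.12 (SE), adjusted p = 0.0464, 0.144 without B3), and Rxra did not pass (-0.053, adjusted p = 0.782). The corepressor gene Ncor1 did not pass (-0.24, adjusted p = 0.142). Tbl1x, which encodes a subunit of the corepressor complex, had 1374, 1584, 1238 and 1430 in the controls and 996, 984, 938 and 886 at 3 h, a fall without overlap (log2FC -0.56 ± 0.090 (SE), adjusted p = 0.000344). Among coactivators, Ncoa1 fell slightly (log2FC -0.32 ± 0.095 (SE), adjusted p = 0.0352, 0.111 without B3), whereas the PGC-1 genes Ppargc1a (log2FC 1.42 ± 0.40 (SE), adjusted p = 0.027, 0.0987 without B3) and Ppargc1b (log2FC 0.72 ± 0.20 (SE), adjusted p = 0.0283, 0.0704 without B9) rose. Nrip1, which encodes the repressor RIP140, had all treated mice below the controls but did not pass (432 to 645 normalized counts in the PTU mice and 209.6 to 389.9 at 3 h, log2FC -0.86 ± 0.28 (SE), adjusted p = 0.0598). It was called by DESeq2, without the low-count filter, with the 2 groups alone and with all 30 mice. The coactivator genes Ncoa2 (-0.12, adjusted p = 0.427), Ncoa3 (0.23, adjusted p = 0.316), Ncoa4 (-0.042, adjusted p = 0.905), Med1 (0.27, adjusted p = 0.218), Crebbp (-0.21, adjusted p = 0.289) and Ep300 (-0.12, adjusted p = 0.508) did not pass, and neither did the corepressor complex genes Hdac3 (-0.036, adjusted p = 0.848), Tbl1xr1 (0.18, adjusted p = 0.4) and Gps2 (0.35, adjusted p = 0.202). Hr, described above, is also a member. Without B2 or without B3, 3 members were upregulated and 1 was downregulated, and without B11 4 and 1.

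Of the deiodinases and hormone transporters, 6 of 11 were tested and 2 were upregulated, Slco4a1 and Dio2. Dio2 had 376, 1435, 1095 and 2961 normalized counts in the controls and 3151, 5620, 6435 and 5795 at 3 h (log2FC 1.84 ± 0.53 (SE), adjusted p = 0.0337, 0.0887 without B2), so that the highest control reached close to the lowest treated mouse. The transporter genes Slc16a10 (-0.099, adjusted p = 0.606), Slc7a8 (0.58, adjusted p = 0.426) and Slc3a2 (0.13, adjusted p = 0.835) did not pass.

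Of 25 genes of the brown fat programme tested, 6 were upregulated and 1 was downregulated, beside 5.1% and 4.09% over all genes tested. Their median was 0.17. Ucp1 had 67140, 56420, 62340 and 77440 normalized counts in the controls and 124100, 86500, 116400 and 154000 after TH (log2FC 0.87 ± 0.21 (SE), adjusted p = 0.0105), without overlap. Ppargc1a had 326, 347, 612 and 1066 and 988, 1634, 1614 and 2047, and here the highest control lay above the lowest treated mouse. The transcription factor gene Cebpb (log2FC 0.98 ± 0.27 (SE), adjusted p = 0.0243, 0.0854 without B3) and Esrra also rose, whereas Ebf2, which marks brown precursors, fell, with 1036 to 1398 normalized counts in the PTU mice and 679 to 962 at 3 h (log2FC -0.60 ± 0.12 (SE), adjusted p = 0.00331). The β3-adrenergic receptor gene Adrb3 (3759 to 4136 normalized counts in the PTU mice and 1702 to 3645 at 3 h, -0.69, adjusted p = 0.202), Elovl3, of fatty acid elongation (-0.98, adjusted p = 0.19), Prdm16 (0.27, adjusted p = 0.353), Pparg (-0.088, adjusted p = 0.667), Cox7a1 (0.14, adjusted p = 0.654) and Cox8b (0.19, adjusted p = 0.291) did not pass. The lipid and channel genes Slc27a2 (0.28, adjusted p = 0.487), Gk (0.41, adjusted p = 0.578), Fabp3 (-0.083, adjusted p = 0.917), Cpt1b (-0.13, adjusted p = 0.735), Cidea (0.029, adjusted p = 0.905), Kcnk3 (0.31, adjusted p = 0.512) and Otop1 (-0.087, adjusted p = 0.735) and the transcription factor genes Cebpa (0.17, adjusted p = 0.492), Ppara (-0.11, adjusted p = 0.807), Esrrg (0.12, adjusted p = 0.611), Irf4 (0.33, adjusted p = 0.678) and Zfp516 (-0.039, adjusted p = 0.934) did not pass either. The list depended on single mice. Leaving out each in turn gave 1 to 5 upregulated members, with 1 without B2 or without B3 and 2 without B9 or without B11.

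**Figure D4:**
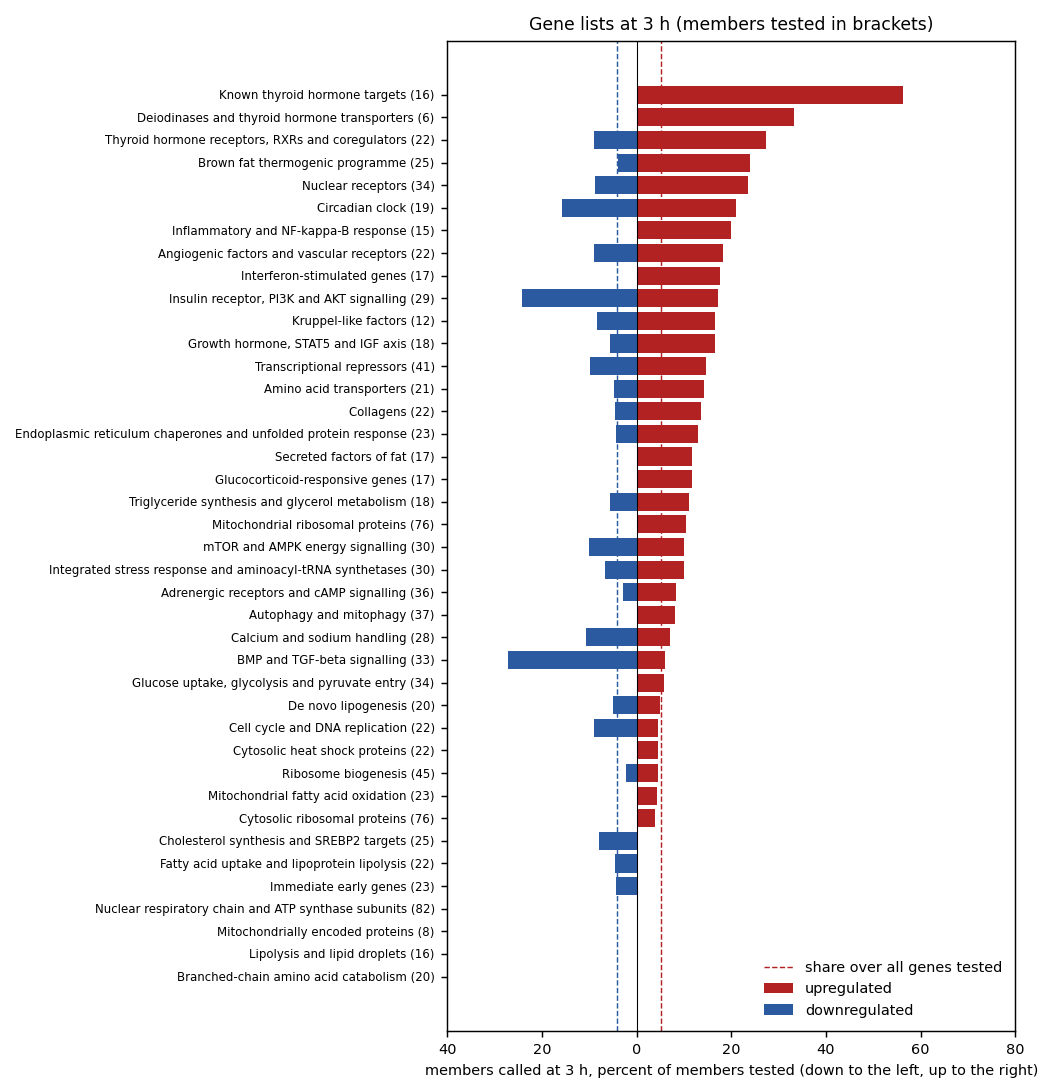
Share of tested members called at 3 h in 40 gene lists, as percent; red bars to the right are upregulated and blue bars to the left downregulated members, and dashed lines mark 5.1% and 4.09% over all genes tested. Known TH targets had 9 of 16 upregulated, and BMP and TGF-beta signalling 9 of 33 downregulated.

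Other transcription factors moved in both directions. Of 12 Krüppel-like factors tested, Klf9 and Klf13 (41.2 to 85.8 normalized counts in the PTU mice and 142 to 212 at 3 h, log2FC 1.55 ± 0.27 (SE), adjusted p = 0.000795) rose and Klf11 fell (156 to 209 normalized counts in the PTU mice and 55.5 to 99.2 at 3 h, log2FC -1.21 ± 0.21 (SE), adjusted p = 0.000937). Among 34 nuclear receptors, 8 were upregulated and 3 were downregulated, beside 5.1% and 4.09% over all genes tested. Leaving out single mice gave 3 to 6 rises, with 3 without B2 or without B3. The retinoic acid receptor gene Rara rose (log2FC 1.07 ± 0.27 (SE), adjusted p = 0.0142, 0.0507 without B3), as did the low-expressed Esrrb (1.15 to 3.34 normalized counts in the PTU mice and 1.96 to 18.96 at 3 h, log2FC 2.21 ± 0.61 (SE), adjusted p = 0.0256, 0.14 without B11), and the mineralocorticoid receptor gene Nr3c2 fell, with 141, 162, 229 and 134 in the controls and 76.6, 58.9, 78.6 and 49.8 at 3 h (log2FC -1.35 ± 0.24 (SE), adjusted p = 0.00106). Of 41 transcriptional repressors, 6 rose and 4 fell, among them Id2, an inhibitor of basic helix-loop-helix factors, which rose, with 106 to 160.2 normalized counts in the PTU mice and 270.1 to 899.8 at 3 h (log2FC 1.90 ± 0.43 (SE), adjusted p = 0.00805). Immediate early genes, which respond first to many stimuli, gave 0 rises and 1 fall in 23 tested, the antiproliferative gene Btg2 (598 to 1108 normalized counts in the PTU mice and 171 to 364 at 3 h, log2FC -1.38 ± 0.26 (SE), adjusted p = 0.00152).

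Clock genes were among those called, with 4 of 19 upregulated and 3 downregulated, beside 5.1% and 4.09% over all genes tested. The PAR bZIP genes Dbp and Tef and the repressor genes Nr1d2 and Per2 are all outputs or parts of the circadian clock. Dbp had 4.74, 12.6, 71.7 and 15.6 in the controls and 438, 224, 304 and 48.97 at 3 h (log2FC 3.16 ± 0.59 (SE), adjusted p = 0.00165), with control mouse B4 above the lowest treated mouse. It shares 539 bases with Sphk2 on the opposite strand, whose log2 fold change was 0.99. Tef had 162 to 328 normalized counts in the PTU mice and 293 to 796 at 3 h (log2FC 1.47 ± 0.28 (SE), adjusted p = 0.0017), Nr1d2 45.6 to 174 normalized counts in the PTU mice and 154 to 356 at 3 h (log2FC 1.49 ± 0.28 (SE), adjusted p = 0.00189) and Per2 9.16 to 44.9 normalized counts in the PTU mice and 48.1 to 139.8 at 3 h (log2FC 1.53 ± 0.44 (SE), adjusted p = 0.03, 0.133 without B11). The downregulated members included Rora (log2FC -0.63 ± 0.13 (SE), adjusted p = 0.00407) and Nfil3, a repressor that opposes Dbp (log2FC -1.42 ± 0.45 (SE), adjusted p = 0.0485, 0.141 without B5). Per2 was the 1 member with all treated mice above the controls. Without B11, 5 members were upregulated and 5 downregulated, and leaving out B3, B5, B7, B8 or B9 left 1 downregulated member. The hour of collection of each group cannot be told apart from the hormone. Of 17 glucocorticoid-responsive genes, Mt1 (log2FC 0.80 ± 0.24 (SE), adjusted p = 0.0418, 0.118 without B3) and Ddit4 (log2FC 1.17 ± 0.36 (SE), adjusted p = 0.0459, 0.232 without B11) rose. Neither was called without B2, B3, B5, B8, B9 or B11. Without the low-count filter, 5 of the 17 rose.

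Insulin signals through its receptor, IRS adaptors, PI3-kinase and AKT to glucose uptake and FOXO factors. Of 29 genes of this pathway tested, 5 rose and 7 fell, beside 5.1% and 4.09% over all genes tested. Beside Pik3r1, the falls included the catalytic subunit gene Pik3cb (255 to 369 normalized counts in the PTU mice and 120.1 to 190.5 at 3 h, log2FC -1.03 ± 0.15 (SE), adjusted p = 0.00014), the regulatory subunit gene Pik3r3 (log2FC -1.01 ± 0.20 (SE), adjusted p = 0.00245), the adaptor gene Irs1 (416 to 1084 normalized counts in the PTU mice and 239 to 561 at 3 h, log2FC -1.07 ± 0.26 (SE), adjusted p = 0.0118), the glucose transport regulator gene Tbc1d4 (-0.68, adjusted p = 0.00691) and Gsk3b (-0.56, adjusted p = 0.0177, 0.0762 without B5). Upregulated were Akt1 (168, 135, 179 and 161 in the controls and 298, 298, 295 and 325 at 3 h, log2FC 0.91 ± 0.17 (SE), adjusted p = 0.00122), the transcription factor gene Foxo1 (571 to 984 normalized counts in the PTU mice and 1034 to 2081 at 3 h, log2FC 1.09 ± 0.25 (SE), adjusted p = 0.00765), the receptor gene Insr (0.37, adjusted p = 0.0303, 0.0833 without B5), the phosphatase gene Phlpp1 (0.46, adjusted p = 0.0182, 0.0757 without B2) and the leukocyte-enriched Pik3cd (log2FC 1.21 ± 0.32 (SE), adjusted p = 0.0204, 0.0851 without B11). Leaving out each mouse in turn left 3 to 5 rises and 5 to 7 falls.

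Energy sensing by mTOR and AMPK had 3 rises and 3 falls in 30 genes, beside 5.1% and 4.09% over all genes tested. With single mice left out, the list had 1 to 3 rises and 2 to 3 falls. Stk11, which encodes the AMPK-activating kinase LKB1, rose (169.6 to 226 normalized counts in the PTU mice and 261 to 293 at 3 h, log2FC 0.49 ± 0.11 (SE), adjusted p = 0.00714), and the catalytic subunit gene Prkaa2 (log2FC -0.49 ± 0.12 (SE), adjusted p = 0.0133, 0.0642 without B5) and the sestrin gene Sesn3 (318 to 377 normalized counts in the PTU mice and 204 to 253 at 3 h, log2FC -0.61 ± 0.14 (SE), adjusted p = 0.00671) fell. Ddit4l also belongs to this list, as do the upregulated Ddit4 and Tfeb. In the growth hormone and STAT5 axis, 3 of 18 rose and 1 fell. Stat5a had 288, 387, 315 and 279 in the controls and 747, 907, 618 and 562 at 3 h. Stat5b had 231, 203, 233 and 241 in the controls and 359, 332, 356 and 384 at 3 h (log2FC 0.65 ± 0.10 (SE), adjusted p = 0.000344). Both transcription factor genes, which act below the growth hormone and prolactin receptors, were without overlap. The binding protein gene Igfbp3 also rose (log2FC 1.16 ± 0.35 (SE), adjusted p = 0.0418, 0.175 without B11), and the prolactin receptor gene Prlr fell (134 to 234 normalized counts in the PTU mice and 77.6 to 124 at 3 h, log2FC -0.95 ± 0.18 (SE), adjusted p = 0.00191).

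Of 36 genes of adrenergic receptors and cAMP signalling, 3 rose and 1 fell, beside 5.1% and 4.09% over all genes tested, and 2 to 4 and 0 to 2 with single mice left out. The rises were 3 of the 7 phosphodiesterase genes on the list, whose products break down cAMP. Pde8a had 580.4, 649.6, 687 and 551 in the controls and 1186, 1237, 1087 and 967 at 3 h (log2FC 0.86 ± 0.11 (SE), adjusted p = 2.53e-05), Pde4a had 289 to 389.8 normalized counts in the PTU mice and 512 to 566 at 3 h (log2FC 0.72 ± 0.15 (SE), adjusted p = 0.00336), and Pde4c was low (4.45 to 11.8 normalized counts in the PTU mice and 16.3 to 43.4 at 3 h, log2FC 2.04 ± 0.50 (SE), adjusted p = 0.0116, 0.0504 without B11). Gnai1, which encodes an inhibitory G protein subunit, fell (773 to 1171 normalized counts in the PTU mice and 455 to 671 at 3 h, log2FC -0.77 ± 0.19 (SE), adjusted p = 0.0125, 0.0585 without B3).

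In BMP and TGF-beta signalling, 9 of 33 genes fell (4.09% over all genes tested) and 2 rose, with a median of -0.059. The falls included the ligand genes Bmp3 (-0.96, adjusted p = 0.0107, 0.0582 without B3) and Gdf5, the gene of the activin inhibitor follistatin, Fst (-0.91, adjusted p = 0.00403), receptors and a transducer. Acvr1c, the activin receptor gene ALK7, which is abundant in fat, had 1833, 1857, 1747 and 1335 in the controls and 732, 729.6, 706 and 708 at 3 h (log2FC -1.24 ± 0.17 (SE), adjusted p = 6.42e-05), and the 4 treated mice were within a narrow range. Acvr1 (78.7 to 128 normalized counts in the PTU mice and 52.4 to 57.4 at 3 h, log2FC -0.84 ± 0.16 (SE), adjusted p = 0.0019), Bmpr1a (-0.50, adjusted p = 0.0175, 0.066 without B3), Tgfbr1 (-0.38, adjusted p = 0.0232, 0.0792 without B11) and Tgfbr2 (-0.58, adjusted p = 0.0362, 0.116 without B5) fell as well. Smad2, which carries the activin and TGF-beta signal, had 722, 808, 683 and 648 in the controls and 488, 496, 508 and 441 after TH (log2FC -0.57 ± 0.094 (SE), adjusted p = 0.000546), and the inhibitory Smad6 rose, with 32.2 to 71.2 normalized counts in the PTU mice and 101 to 157 at 3 h (log2FC 1.24 ± 0.23 (SE), adjusted p = 0.00154), as did Id2. Gdf5 was low (13.4 to 23.4 normalized counts in the PTU mice and 2.87 to 6.32 at 3 h, log2FC -1.97 ± 0.54 (SE), adjusted p = 0.0246, 0.0664 without B5). Leaving out single mice gave 4 to 9 falls, with 4 without B3, and all 30 mice gave 6.

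In fatty acid oxidation, 1 of 23 rose, the carnitine transporter gene Slc22a5 (154 to 184 normalized counts in the PTU mice and 265 to 327 at 3 h, log2FC 0.83 ± 0.16 (SE), adjusted p = 0.00189), with a median of -0.0092. Of 34 genes of glucose uptake and glycolysis, 2 rose, with 4 without B7 and by DESeq2 and 5 without the low-count filter. They were Pdp2, the phosphatase that activates pyruvate dehydrogenase, with 915, 1122, 1211 and 1064 in the controls and 2276, 2795, 2811 and 2046 after TH (log2FC 1.20 ± 0.13 (SE), adjusted p = 4.42e-06), and Pfkfb1, which sets the level of fructose 2,6-bisphosphate (268 to 357 normalized counts in the PTU mice and 517 to 924 at 3 h, log2FC 1.16 ± 0.16 (SE), adjusted p = 6.78e-05). In de novo lipogenesis, 2 regulators of 20 genes moved in opposite directions. Mlxipl, which encodes ChREBP, rose (815 to 1315 normalized counts in the PTU mice and 1330 to 1732 at 3 h, log2FC 0.59 ± 0.18 (SE), adjusted p = 0.048, 0.146 without B2), and Srebf1, which encodes SREBP1, fell (1248 to 1643 normalized counts in the PTU mice and 588 to 931 at 3 h, log2FC -0.83 ± 0.23 (SE), adjusted p = 0.0284, 0.0922 without B11). Neither was called without B4, B9 or B11. With single mice left out, Mlxipl was called only without B5.

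Triglyceride synthesis had 2 rises and 1 fall in 18 genes. Lpin3, a phosphatidate phosphatase gene, was nearly absent in the controls (0.948, 0, 1.57 and 7.79) and had 26.8, 40.5, 18.7 and 26.1 at 3 h (log2FC 3.45 ± 0.55 (SE), adjusted p = 0.00034), and the acyltransferase gene Gpat3 fell, with 452, 511, 329.9 and 382 in the controls and 173, 155, 183 and 78.99 at 3 h (log2FC -1.51 ± 0.23 (SE), adjusted p = 0.000265). Gpat3 shares 1052 bases with 4930458D05Rik on the opposite strand, which had a log2 fold change of -1.49. Gpd2 was the other rise. Of 16 lipolysis genes and 20 genes of branched-chain amino acid catabolism, 0 were called, with medians of 0.0060 and -0.089. Pnpla2, the gene of adipose triglyceride lipase (0.37, adjusted p = 0.209), Hibadh (-0.23, adjusted p = 0.261) and Aldh6a1 (-0.16, adjusted p = 0.538) were among them. Of 22 genes of fatty acid uptake, 1 fell, the lipoprotein receptor gene Vldlr (log2FC -0.53 ± 0.16 (SE), adjusted p = 0.0452, 0.138 without B3). Cholesterol synthesis had a median of -0.29 in 25 genes (-0.10 without B7 and -0.42 without B8), with 2 falls (4 without B2, by DESeq2 and without the low-count filter), those of Insig1, the sterol-sensing partner of SREBP (1316, 1588, 1814 and 2370 in the controls and 575, 556, 787 and 867 at 3 h, log2FC -1.35 ± 0.22 (SE), adjusted p = 0.000467), and Hmgcs1 (1610 to 2693 normalized counts in the PTU mice and 989 to 1369 at 3 h, log2FC -0.79 ± 0.15 (SE), adjusted p = 0.00143).

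Amino acid transporters had 3 rises and 1 fall in 21 genes, beside 5.1% and 4.09% over all genes tested. Slc7a6 had 234, 279.5, 329 and 352 in the controls and 609.7, 846, 518 and 714 at 3 h (log2FC 1.17 ± 0.15 (SE), adjusted p = 2.73e-05). Slc43a2, which carries neutral amino acids, had 191, 154, 199 and 190.2 in the controls and 538, 754, 456 and 630.3 at 3 h (log2FC 1.69 ± 0.34 (SE), adjusted p = 0.00262). Slc43a3 rose less (log2FC 0.63 ± 0.14 (SE), adjusted p = 0.0068), while its relative Slc43a1 fell (60.1 to 128 normalized counts in the PTU mice and 23.7 to 60.9 at 3 h, log2FC -1.16 ± 0.24 (SE), adjusted p = 0.00401). Of 28 genes for calcium and sodium handling, 2 rose, among them the calcium pump gene Atp2a3 (log2FC 0.65 ± 0.14 (SE), adjusted p = 0.00596), and 3 fell, the calmodulin kinase genes Camk2d (565 to 596 normalized counts in the PTU mice and 384 to 409.7 at 3 h, log2FC -0.51 ± 0.090 (SE), adjusted p = 0.000947) and Camk2g (log2FC -0.54 ± 0.13 (SE), adjusted p = 0.0122) and the muscle gene Sln (6.87 to 163 normalized counts in the PTU mice and 0 to 14.2 at 3 h, log2FC -3.13 ± 0.99 (SE), adjusted p = 0.05, 0.281 without B2). The Sln values were spread like the skeletal muscle markers, whose part in this call was not tested. The calcium and sodium list had 4 rises and 2 falls by DESeq2 and with a mean above 50. Over all genes tested, 5.1% rose and 4.09% fell in the main test.

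Of 82 nuclear genes for respiratory complexes and ATP synthase, 0 were called by edgeR, with a median log2 fold change of 0.11, and 9 had all treated mice above the controls, where 8.43% of all genes tested did. By abundance, Cox6a1 had 18800 to 20560 normalized counts in the PTU mice and 19930 to 23080 at 3 h (log2FC 0.11 ± 0.089 (SE), adjusted p = 0.476) and Atp5b 19320 to 22010 normalized counts in the PTU mice and 19750 to 24670 at 3 h (log2FC 0.11 ± 0.11 (SE), adjusted p = 0.566). Of 13 mitochondrially encoded genes, 8 were tested, and mt-Atp6, mt-Atp8, mt-Co3, mt-Nd3 and mt-Nd4l had too few counts. The reason for those low counts was not tested. Of the 8, 0 were called, with a median of -0.20, among them mt-Nd1 (-0.29, adjusted p = 0.263) and mt-Cytb (-0.049, adjusted p = 0.874). Mitochondrial ribosomal proteins had 8 rises in 76 genes, beside 5.1% over all genes tested, and a median of 0.11. Mrps2 had 1426, 1591, 1370 and 1596 in the controls and 1880, 1982, 2008 and 2085 at 3 h (log2FC 0.41 ± 0.084 (SE), adjusted p = 0.00316). Log2 fold changes were 0.45, adjusted p = 0.018, 0.0805 without B11 for Mrpl36, 0.49, adjusted p = 0.0208, 0.0842 without B3 for Mrps23, and 0.39, adjusted p = 0.0274, 0.102 without B3 for Mrpl55. Leaving out single mice gave 2 to 10 rises, with 2 without B2, B3 or B9 and 3 without B11.

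Of 45 ribosome biogenesis genes, Rcl1, an endonuclease of small-subunit processing, rose with a wide gap (107, 126, 134 and 113 in the controls and 419, 463, 377 and 353 at 3 h, log2FC 1.74 ± 0.12 (SE), adjusted p = 3.35e-09), Nop2 rose (log2FC 0.54 ± 0.16 (SE), adjusted p = 0.0363, 0.11 without B8) and Wdr75 fell (log2FC -0.44 ± 0.13 (SE), adjusted p = 0.0426, 0.149 without B3). With single mice left out there were 1 to 4 rises and 0 to 1 falls, beside 5.1% and 4.09% over all genes tested in the main test. Cytosolic ribosomal proteins had 3 rises in 76, those of Rpl7a (log2FC 0.39 ± 0.12 (SE), adjusted p = 0.0378, 0.113 without B8), Rplp0 (log2FC 0.40 ± 0.12 (SE), adjusted p = 0.0485, 0.149 without B3) and Rpl23a (log2FC 1.35 ± 0.20 (SE), adjusted p = 0.00013), which shares 506 bases with Tlcd1 on the other strand. Over all genes tested, 5.1% were upregulated in the main test, and with single mice left out 1 to 6 of the 76 ribosomal protein genes rose. These genes have many pseudogene copies, so their counts are uncertain. The endoplasmic reticulum list had 3 rises in 23, those of the chaperone gene Hspa5 (2263 to 2332 normalized counts in the PTU mice and 2602 to 3244 at 3 h, log2FC 0.33 ± 0.079 (SE), adjusted p = 0.0108), Manf (346 to 409.7 normalized counts in the PTU mice and 524 to 740.1 at 3 h, log2FC 0.79 ± 0.15 (SE), adjusted p = 0.00199) and Hyou1 (log2FC 0.55 ± 0.15 (SE), adjusted p = 0.0285, 0.109 without B3), and 1 fall, that of Xbp1, which encodes a main transcription factor of the unfolded protein response (934 to 1903 normalized counts in the PTU mice and 767 to 901 at 3 h, log2FC -0.78 ± 0.18 (SE), adjusted p = 0.00759).

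In the integrated stress response, 3 of 30 rose, Cebpb, Cebpg (493 to 538 normalized counts in the PTU mice and 663 to 766 at 3 h, log2FC 0.48 ± 0.096 (SE), adjusted p = 0.00275) and Atf5 (log2FC 0.72 ± 0.21 (SE), adjusted p = 0.035, 0.122 without B3), and 2 fell, the asparagine synthetase gene Asns (719.7 to 952 normalized counts in the PTU mice and 490.5 to 623 at 3 h, log2FC -0.54 ± 0.15 (SE), adjusted p = 0.027, 0.09 without B11) and Vldlr. Leaving out single mice gave 1 to 3 rises and 0 to 2 falls here. Autophagy genes had 3 rises in 37, those of Tecpr1 (156, 178, 202 and 185 in the controls and 339.8, 418, 363 and 549 at 3 h, log2FC 1.21 ± 0.17 (SE), adjusted p = 7.09e-05), Trp53inp2 (log2FC 0.53 ± 0.14 (SE), adjusted p = 0.0193, 0.0773 without B2) and Tfeb, the regulator of lysosomal genes (log2FC 0.83 ± 0.23 (SE), adjusted p = 0.027, 0.0967 without B9), and 1 to 5 with single mice left out. Without the low-count filter 6 autophagy genes rose, and 5.1% of all genes tested were upregulated in the main test. Of 22 cytosolic heat shock proteins, Fkbp4 rose (log2FC 0.60 ± 0.18 (SE), adjusted p = 0.0376, 0.163 without B11), with 0 to 3 rises when single mice were left out. The rises numbered 3 by DESeq2 and 6 without the low-count filter. In the cell cycle list of 22, the inhibitor Cdkn1c rose (38.9 to 89.4 normalized counts in the PTU mice and 97.95 to 124 at 3 h, log2FC 0.89 ± 0.18 (SE), adjusted p = 0.00334), and Cdk6 (log2FC -0.62 ± 0.16 (SE), adjusted p = 0.0178, 0.0682 without B4) and Ccnd2 (log2FC -0.58 ± 0.17 (SE), adjusted p = 0.0388, 0.128 without B2) fell, with 0 to 3 falls when single mice were left out.

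Of 22 angiogenic factors and vascular receptors, 4 rose and 2 fell, beside 5.1% and 4.09% over all genes tested. The list had a median of 0.32, and 3 to 5 rises and 0 to 3 falls with single mice left out. Apln and its receptor gene Aplnr (42.3 to 111 normalized counts in the PTU mice and 95.6 to 457 at 3 h, log2FC 1.36 ± 0.42 (SE), adjusted p = 0.0434, 0.213 without B7) both rose, as did Nrp1, a coreceptor of VEGF, with 569, 562, 672 and 574 in the controls and 1203, 1009, 962 and 1280 at 3 h (log2FC 0.91 ± 0.14 (SE), adjusted p = 0.000251), and Vegfa (1325, 1490, 1568 and 1735 in the controls and 2404, 2102, 2317 and 2376 at 3 h, log2FC 0.59 ± 0.13 (SE), adjusted p = 0.00774). Angpt1 fell (181 to 229 normalized counts in the PTU mice and 62.4 to 127 at 3 h, log2FC -1.03 ± 0.27 (SE), adjusted p = 0.0187, 0.0678 without B11), as did Fgf2 (-0.70, adjusted p = 0.0328, 0.131 without B5). The 10 endothelial markers had a median of 0.049 and 0 calls. Of 22 collagens, Col27a1 had the largest rise (64.5, 141, 101 and 112 in the controls and 510.2, 429.6, 509.7 and 228 at 3 h, log2FC 2.01 ± 0.25 (SE), adjusted p = 1.9e-05), Col4a2 (log2FC 0.72 ± 0.16 (SE), adjusted p = 0.00534) and Col6a3 (log2FC 0.57 ± 0.17 (SE), adjusted p = 0.0427, 0.131 without B3) rose, and Col8a1 fell (log2FC -0.79 ± 0.20 (SE), adjusted p = 0.0133, 0.053 without B11). Of 17 secreted factors of fat, Vegfa and the chemokine gene Cxcl14 rose, the latter with 10.4, 20.6, 32.3 and 20.02 in the controls and 92.8, 129.7, 107 and 126 at 3 h (log2FC 2.42 ± 0.23 (SE), adjusted p = 5.14e-07).

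Immune lists were small, and 5.1% of all genes tested were upregulated. In the inflammatory and NF-kappa-B list, 3 of 15 rose, Bcl3, the inhibitor of Toll-like receptor signalling Irak3 (124 to 138 normalized counts in the PTU mice and 194 to 416 at 3 h, log2FC 1.11 ± 0.23 (SE), adjusted p = 0.00346) and Vcam1 (log2FC 0.66 ± 0.20 (SE), adjusted p = 0.0443, 0.123 without B11), and in the interferon list 3 of 17, Gbp3 (21.8 to 29.4 normalized counts in the PTU mice and 51.3 to 66.8 at 3 h, log2FC 1.23 ± 0.27 (SE), adjusted p = 0.00612), Bst2 (log2FC 0.86 ± 0.23 (SE), adjusted p = 0.0241, 0.077 without B11) and Irf9 (log2FC 0.62 ± 0.18 (SE), adjusted p = 0.031, 0.13 without B11). Without B11, which had the highest macrophage sum, these were 2 and 1, and they were the same without the control mouse B3. Leaving out single mice gave 2 to 4 in the first list and 1 to 4 in the second. The calls among marker genes were the hemoglobin genes Hba-a1 (66.5 to 136 normalized counts in the PTU mice and 168 to 577 at 3 h, log2FC 1.48 ± 0.39 (SE), adjusted p = 0.0199, 0.123 without B11) and Hba-a2 (log2FC 1.46 ± 0.39 (SE), adjusted p = 0.0209, 0.124 without B11), which are near-identical copies and were not called without B2, B3 or B11, Ly6a of fibroblasts and progenitors (log2FC 0.84 ± 0.18 (SE), adjusted p = 0.00457), Cdh19 of Schwann cells (log2FC -0.59 ± 0.18 (SE), adjusted p = 0.0415, 0.106 without B9), and Ucp1, Ppargc1a and Ebf2 of brown adipocytes. All 5 erythrocyte markers tested were upregulated without B8 and without the low-count filter, and 3 without B7 and by DESeq2.

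At 6 h, 225 of the 13003 genes (1.73%) were higher and 139 (1.07%) lower than at 3 h. These counts were 59 and 44 without B15 and 103 and 87 with all 30 mice, and leaving out B7, B8, B9, B12 or B17 also moved both by over 1.5 times. At 24 h, 1477 (11.4%) were higher and 1285 (9.88%) lower than at 3 h. These comparisons share the 3 h mice with the comparison against PTU, so the values are given side by side and no overlap is drawn from them. Among the genes called at 3 h, those with the largest further rise to 6 h past both thresholds and with a mean above 50 were Gm32468 (log2 difference 1.61, adjusted p = 0.028), Per2 (1.46, adjusted p = 0.0345), the transaminase gene Got1 (1.44, adjusted p = 0.00384) and Cyp2e1. Got1 had 144 ± 17.96 normalized counts in the controls, 345 ± 124 at 3 h and 935 ± 265 at 6 h (SD, n = 4). Cyp2e1 was lower at 3 h than in the controls (log2FC -0.83 ± 0.18 (SE), adjusted p = 0.00671) and higher again at 6 h (6 h against 3 h 1.31, adjusted p = 0.00112).

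By the same rule, the largest falls from 3 h to 6 h were those of Peg3, Trarg1, Gtf2ird1 and Dapk1. The imprinted gene Peg3 rose at 3 h (323 to 688 normalized counts in the PTU mice and 1154 to 1732 at 3 h, log2FC 1.36 ± 0.29 (SE), adjusted p = 0.00469) and was at 487 ± 217 at 6 h (6 h against 3 h -1.47, adjusted p = 0.00967) and 341 ± 117 at 24 h. Gtf2ird1 likewise rose at 3 h (log2FC 0.80 ± 0.22 (SE), adjusted p = 0.0235, 0.0787 without B5) and was lower at 6 h (-1.26, adjusted p = 0.00568). Trarg1, a regulator of the glucose transporter GLUT4 (log2FC -1.11 ± 0.24 (SE), adjusted p = 0.0046 at 3 h), fell further by 6 h (-1.34, adjusted p = 0.00764), as did the kinase gene Dapk1 (log2FC -1.31 ± 0.21 (SE), adjusted p = 0.000303 at 3 h, then -1.20, adjusted p = 0.00811).

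By 24 h the strongest further rises by this rule were those of Gm32468, which reached 962 ± 269.8 normalized counts (SD, n = 4), Ddit4l, Osgin1 and Apln. Ddit4l had turned back, from 16.1 ± 6.00 at 3 h to 138 ± 56.9 at 24 h (24 h against 3 h 3.08, adjusted p = 0.000367) where the controls had 108 ± 70.8. Osgin1 was likewise lower at 3 h (19.7 to 84.5 normalized counts in the PTU mice and 14.7 to 23.7 at 3 h, log2FC -1.57 ± 0.47 (SE), adjusted p = 0.0398, 0.126 without B5), and had 153 ± 57.8 at 24 h, where the controls had a mean of 55.2. Apln went on rising, to 209 ± 78.7 (2.58, adjusted p = 5.71e-06). The largest falls were those of Gpat3 (-2.75, adjusted p = 1.89e-06), Arxes2 (log2FC -0.97 ± 0.26 (SE), adjusted p = 0.0208, 0.101 without B3 at 3 h, then -2.28), Bhlhb9 (log2FC -0.85 ± 0.24 (SE), adjusted p = 0.0289, 0.115 without B3 at 3 h, then -2.16) and Peg3. Klf9 was lower at 24 h than at 3 h, with 2409 ± 281 (-0.44, adjusted p = 0.00306), and Hr was higher, with 304 ± 51.2 (1.00, adjusted p = 0.00346). Pik3r1 came back in part, to 1115 ± 539.6 (1.14, adjusted p = 0.0276), and the difference for Ucp1 between 24 h and 3 h was 0.060 ± 0.21 (SE), adjusted p = 0.874.

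**Figure D5:**
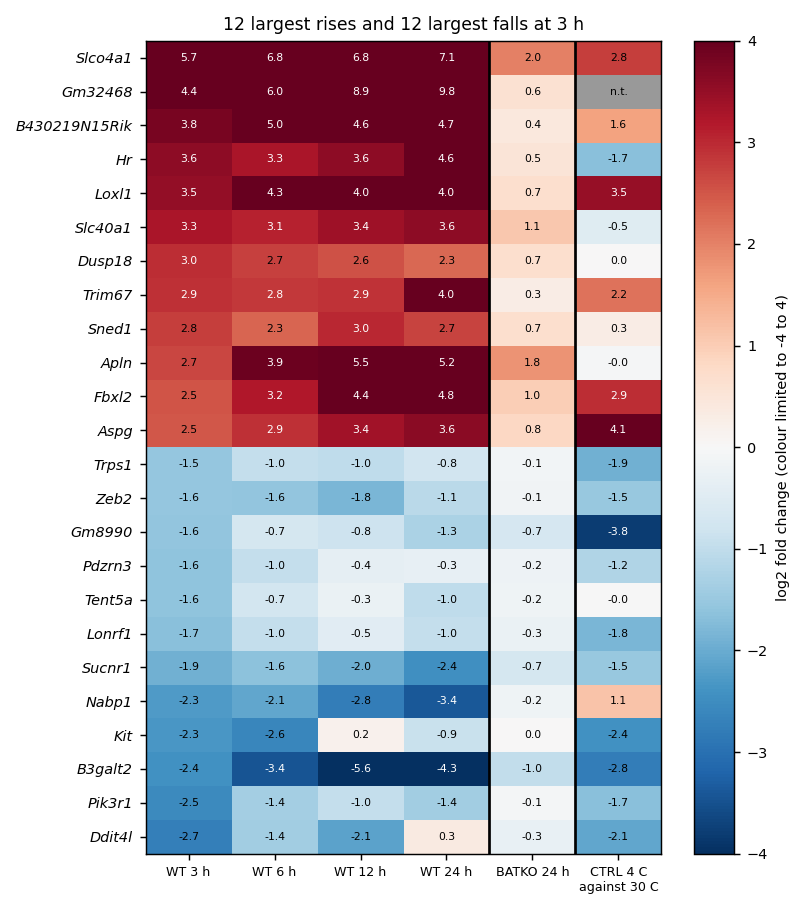
Log2 fold changes of the 12 largest rises and 12 largest falls at 3 h, in rows, for WT mice at 3, 6, 12 and 24 h against the same 4 PTU mice, BATKO mice at 24 h against BATKO PTU mice, and CTRL mice at 4 °C against 30 °C; red is higher, blue lower, and n.t. not tested. In the cold, Aspg was at 4.11 and Loxl1 at 3.48, and Kit at -2.43.

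The genes of the 3 h response were then read in mice that the comparison had not used. In BATKO mice 24 h after TH against BATKO PTU, 0 of the 12890 genes tested in both fits (0%) were higher and 0 (0%) lower, by edgeR, and DESeq2 called 0 genes of the 3 h response in the same direction. At an unadjusted p under 0.05, 673 of 14178 genes (4.75%) differed, with both directions counted together. Of 662 genes upregulated at 3 h in WT mice, 54 were higher at that level and 4 were lower, and of 531 downregulated genes 45 were lower and 1 was higher. The median log2 fold change in BATKO mice was 0.093 over the upregulated and -0.093 over the downregulated genes, and -0.010 over the genes without a call. These values differ from the WT values at 3 h in both time and genotype. At the same 24 h, the responses of WT and BATKO mice differed for 1708 of 12890 genes (13.3%, interaction term in edgeR, adjusted p under 0.05). Slco4a1 had a log2 fold change of 2.02 ± 0.70 (SE) in these mice, Klf9 0.66 ± 0.18, Hr 0.50 ± 0.39 and Pik3r1 -0.085 ± 0.32.

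In CTRL mice, whose labels name no PTU or TH, 4 °C against 30 °C gave 3462 higher genes of 12541 tested in both fits (27.6%) and 2783 lower genes (22.2%). Cold is known to activate brown fat through noradrenaline. Of 652 genes upregulated by TH at 3 h, 331 (50.8%) were higher and 78 (12%) lower in the cold, with a median of 0.59. Of 519 downregulated genes, 234 (45.1%) were lower and 64 (12.3%) higher, with a median of -0.52. Genes without a call at 3 h had 27% higher and 21.7% lower. The shares in the same direction were above, and those in the opposite direction below, the shares over all genes. Aspg (4.11, adjusted p = 6.95e-08), Loxl1 (3.48, adjusted p = 9.79e-08), Ucp1 (4.40, adjusted p = 4.56e-06) and Ppargc1a (2.57, adjusted p = 1.74e-05) were higher in the cold, and Kit (-2.43, adjusted p = 9.28e-05), Pik3r1 (-1.67, adjusted p = 0.000288) and Zeb2 (-1.52, adjusted p = 8.99e-05) were lower.

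Slc40a1 (-0.47, adjusted p = 0.205), Dusp18 (0.019, adjusted p = 0.96), Klf9 (0.12, adjusted p = 0.631) and Stat5a (-0.15, adjusted p = 0.591) did not pass in the cold. The clock genes Dbp (-2.41, adjusted p = 1.5e-05) and Nr1d2 (-1.26, adjusted p = 0.0013) and the vascular gene Aplnr (-3.31, adjusted p = 4.05e-05) were lower in the cold although they were upregulated 3 h after TH, and Nabp1 (1.13, adjusted p = 0.00248) and Hmgcs1 (1.75, adjusted p = 7.17e-05) were higher although downregulated.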

How the data were processed

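RNA-seq of whole BAT was available for 59 mice, each a separate animal and library. The authors deposited raw counts per gene, made from reads aligned to mm10. The submitters' notes name Bowtie2 2.3.2.2 and DESeq2. The annotation and strand setting of the counting are not given in the sources used here. Of 55341 genes, 14 had symbols changed to dates and are not named.

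Genes with a mean of at least 10 TMM-normalized counts over the 20 WT mice of the TH experiment were tested with the quasi-likelihood test of edgeR 4.0.16 (R 4.3.3), fitted to all 5 WT groups without covariates, and p-values were adjusted over all genes tested (Benjamini-Hochberg). SE were taken from the fold change and the F statistic. BATKO mice were fitted with all 30 mice of the TH experiment (14178 genes tested), and CTRL mice in their own table. Levels of marker lists were compared by exact permutation tests, two-sided. Promoters were RefSeq sequences (GRCm38.p6) matched by symbol. The 8 libraries held 12020000 to 14620000 counts, and replicates differed by more than counting error.

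Named genes were the 12 largest rises and falls (adjusted p under 0.05, mean above 50, no overlap), up to 4 called members of each list by adjusted p or, where none passed, the 2 most abundant, all members of 4 lists (known TH targets, hormone transporters and deiodinases, receptors and coregulators, brown fat), the 4 largest rises and falls among called genes from 3 h to 6 h and to 24 h, and members called with at least 2-fold change. Other called members were named to complete a count, and some genes that these rules name are not reported here. Members and lists were chosen with earlier results of these data known.

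On simulated counts of 13008 genes for the 3 h comparison, 64 of 100 genes changed 2-fold and 22 of 100 changed 1.5-fold were recovered, with 7 unchanged genes called. Alternatives were DESeq2 1.42.0, RLE normalization, no filter and a mean above 50, only the compared groups or all 30 mice, and single mice left out. Figures and exact tests used Python (SciPy 1.17.1, matplotlib 3.10.9).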

Additional observations from a re-analysis of the deposited data

Results flagged for a closer look

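In groups of 4 mice, 1 mouse stood far from the other 3 in 29 of 500 groups examined (5.8%), and chance alone gives about 1 in 20. The 3 h mouse B11 was that mouse in 14 of the 29. It was high in the erythrocyte markers (15690 normalized counts), the macrophage markers (2387) and the fibroblast and progenitor markers (8007), and low in its mitochondrial share (45.1%, where the other 3 h mice had 49.9%). Among genes it was high in Hba-a1 (577), Hba-a2 (401), Ly6a (1848), Lyz2 (716), Hcn2 (20.5), Bmp3 (22.1) and Akt1 (325), and low in Asns (490.5), Btg2 (171) and Camk2d (384). The part of B11 in the results was not tested beyond leaving it out.

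The control mouse B4 stood apart with high Acta2 (619), Nrp1 (672.5), Dbp (71.7), Mt1 (6867), Pde4c (11.8), Slc25a42 (1083) and Tef (328). B3 stood apart with high B3galt2 (3867), Camk2d (596) and Insr (1170), B2 with low Cox6a1 (18800) and B5 with high Cpt1b (92.3). At 3 h, B7 stood apart with high Apln (61.3), low Ighm (50.7) and high Schwann cell and nerve markers (2824).

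Of the 24 largest changes at 3 h, 16 differed between WT and BATKO mice in their response at 24 h, by an interaction term in edgeR over all 30 mice with p adjusted over all genes tested. Of 12890 genes tested in both fits, 1708 (13.3%) differed in this way. The 24 genes were ranked by their change against the same 4 WT PTU mice that the WT response at 24 h uses, so their count is a description. The WT response was higher than the BATKO response, on the log2 scale, by 5.07 for Slco4a1 (adjusted p = 0.00824), 4.24 for B430219N15Rik (adjusted p = 7.06e-09), 4.07 for Hr (adjusted p = 4.59e-05), 3.78 for Fbxl2 (adjusted p = 1.5e-05), 3.72 for Trim67 (adjusted p = 1.02e-07) and 3.44 for Apln (adjusted p = 0.0102). It was also higher by 3.38 for Loxl1 (adjusted p = 0.000238), 2.79 for Aspg (adjusted p = 0.0225), 2.50 for Slc40a1 (adjusted p = 0.008), 2.02 for Sned1 (adjusted p = 0.000756) and 1.64 for Dusp18 (adjusted p = 0.0113). Gm32468 had a fitted difference of 9.16 (adjusted p = 0.0015), which rests on very few counts in some groups and is not a measure of size. The response was lower in WT mice for B3galt2 (-3.31, adjusted p = 6.02e-05), Nabp1 (-3.24, adjusted p = 0.00168), Sucnr1 (-1.72, adjusted p = 0.0193) and Zeb2 (-0.92, adjusted p = 0.00627). At 24 h these mice share the PTU and TH treatment but were not compared at 3 h, for which no BATKO mice were analysed here.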

How the results depend on the processing

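No paired analysis was possible because the groups compared share no mouse number. At 3 h, DESeq2, RLE normalization, no filter, a mean above 50, the 2 groups alone and all 30 mice gave 618 to 753 upregulated and 447 to 654 downregulated genes (663 and 532 in the main test). DESeq2 called 655 of the 663 and 522 of the 532. Leaving out single mice gave 399 to 713 and 285 to 598, with the lowest counts without B3. The counts of 6 h against 3 h were unstable, at 406 higher and 231 lower without a filter, 103 and 87 with all 30 mice, and 59 to 288 and 44 to 128 with single mice left out, lowest without B15. Leaving out B7, B8, B9, B12 or B17 also moved both of these counts by over 1.5 times. For 24 h against 3 h, 806 genes were lower with the 2 groups alone (1285 in the main test), and single mice left out gave 1153 to 1461 higher and 953 to 1227 lower. In BATKO mice, 0 genes of the 3 h response were called in its direction by DESeq2, under RLE normalization, without a filter, with a mean above 50 and with single BATKO mice left out. In the cold, 301 to 333 and 203 to 240 genes of the 3 h response were called in its direction by the other fits (331 and 234 in the main test). The exact DR4 gave 0 upregulated genes and the relaxed one 4, and wider windows around each gene were not run for want of a genome sequence.

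Of 237 named genes, the call and direction were as in the main test for 233 under DESeq2 and for all 237 under RLE normalization, and for 178 to 213 with single mice left out. It was so for 203 with all 30 mice, where 32 calls were lost, for 220 of 234 with the 2 groups alone (10 lost) and for 221 without a filter (11 lost). Beside genes whose call a single mouse decides, Cyp2e1, Fst, Gbp3, Gpd2, Prlr and Trarg1 were not called with all 30 mice, nor Hspa5 without a filter. Calls were gained for Nrip1 and Atp2a2 (DESeq2, all 30 mice), Acta2 and Hoxc8 (no filter, the 2 groups alone), Acta1 and Ckm (no filter) and Adrb3 (the 2 groups alone). With single mice left out, Elovl3 gained a call without B11 and Acta2 without B4. Signs turned only with a mouse left out, in genes that had no call and small changes. With single mice left out their log2 fold changes ran over -0.035 to 0.17 for Adora1, -0.078 to 0.030 for Cdh5, -0.024 to 0.082 for Cidea, -0.054 to 0.11 for Cpt1a, -0.23 to 0.090 for Cpt1b, -0.020 to 0.22 for Esrrg, -0.48 to 0.11 for Fabp3, -0.099 to 0.037 for Hdac3, -0.15 to 0.98 for Irf4, -0.33 to 0.56 for Lyz2, -0.11 to 0.054 for Ncoa4, -0.22 to 0.013 for Otop1, -0.18 to 0.019 for Ppara, -0.048 to 0.36 for Slc3a2, -0.20 to 0.012 for Thrsp, -0.21 to 0.17 for Zfp516 and -0.088 to 0.033 for mt-Cytb. The cause of these differences was not tested. In the simulated data with 4 mice a group, 22 of 100 genes changed 1.5-fold were recovered, and smaller changes were not simulated. Fewer genes were changed there than were called here, so the share recovered in the real data may differ. Genes changed less than 1.5-fold were among those called, such as Hspa5. Leaving out B11 was added for the gene lists after seeing the data.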

Other observations

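Genes outside the lists were also read for shared functions, and the groups in this paragraph and the next were chosen after their values were seen, so no test of a group is given. Solute carriers, which move nutrients and ions across membranes, made up 194 of the genes tested, with 23 upregulated (11.9%) and 8 downregulated (4.12%), beside 5.1% and 4.09% over all genes. Of the 38 carriers of the inner mitochondrial membrane (SLC25), 6 rose and 2 fell. Slc25a29, which carries basic amino acids, had 1.15 to 3.34 normalized counts in the PTU mice and 3.93 to 14.4 at 3 h (log2FC 1.82 ± 0.44 (SE), adjusted p = 0.0118). Slc25a42, which carries coenzyme A, had 648 to 1083 normalized counts in the PTU mice and 1733 to 1912 at 3 h (log2FC 1.24 ± 0.22 (SE), adjusted p = 0.000937). It rose together with Pank1, the gene of the first enzyme of coenzyme A synthesis, in these 8 mice. Slc25a33, a pyrimidine nucleotide carrier (log2FC 1.20 ± 0.15 (SE), adjusted p = 2.03e-05), Slc25a51, the NAD carrier (log2FC 0.63 ± 0.12 (SE), adjusted p = 0.00183), and Slc25a48 (log2FC 0.93 ± 0.26 (SE), adjusted p = 0.0284, 0.0908 without B2) also rose. The downregulated members were Slc25a25, an ATP-magnesium and phosphate carrier (70.2 to 241 normalized counts in the PTU mice and 36.4 to 81.5 at 3 h, log2FC -1.59 ± 0.36 (SE), adjusted p = 0.00654), and Slc25a10, the dicarboxylate carrier (log2FC -0.91 ± 0.24 (SE), adjusted p = 0.0204, 0.0737 without B11).

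Of 7 tested receptors that sense metabolites at the cell surface, 5 fell, where 4.09% of all genes tested fell and 5.1% rose. The niacin and ketone body receptor gene Hcar2 had 161, 141, 187 and 97.9 normalized counts in the controls and 25.8, 28.5, 42.2 and 11.1 at 3 h (log2FC -2.47 ± 0.40 (SE), adjusted p = 0.000376). Beside Sucnr1, the lactate receptor gene Hcar1 (log2FC -1.57 ± 0.42 (SE), adjusted p = 0.0215, 0.0701 without B3), the short-chain fatty acid receptor gene Ffar2 (log2FC -1.46 ± 0.44 (SE), adjusted p = 0.0398, 0.0874 without B7) and the nucleotide receptor gene P2ry2 (log2FC -1.14 ± 0.26 (SE), adjusted p = 0.00726) fell. With single mice left out, Hcar1 was called in 4 of 8 fits. Ffar2 passed the count filter in only 2 of these fits and was called in neither. Nor was Ffar2 called with the 2 groups alone or with all 30 mice. Ffar4 (0.42, adjusted p = 0.551) and Adora1 (0.059, adjusted p = 0.91) did not pass. Of 6 subunits that direct protein phosphatase 1 to glycogen, 1 rose, 2 fell and the others, with log2 fold changes from -1.92 to 0.019, did not pass. Ppp1r3g had 0 to 10.01 normalized counts in the PTU mice and 8.62 to 93.3 at 3 h (log2FC 2.94 ± 0.69 (SE), adjusted p = 0.00921), while Ppp1r3c (1150 to 1471 normalized counts in the PTU mice and 449 to 898 at 3 h, log2FC -1.11 ± 0.18 (SE), adjusted p = 0.000551) and Ppp1r3d (log2FC -1.14 ± 0.21 (SE), adjusted p = 0.00132) fell.

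The called genes differed from the others in level and length. The median normalized count over the 20 WT mice was 208.6 for upregulated genes, 184.4 for downregulated genes and 112.6 for genes without a call. The part of level in the differences of length was not tested. The median summed exon length was 4460 bases for 662 upregulated genes, 5710 for 530 downregulated genes and 4111 for 11801 genes without a call.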
